A study of Mus musculus with 6 samples.

Results

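Annexins, their S100 partner S100a10 and the scaffold gene Ahnak form the subject here: 10 of the 23284 genes counted in preSC cells. They are the 8 annexin genes Anxa1, Anxa2, Anxa3, Anxa4, Anxa5, Anxa6, Anxa7 and Anxa11, together with Ahnak and S100a10, and all 10 were found by symbol in the 6 libraries. The set was drawn up from gene families with the low values of Ahnak and Anxa1 in cells carrying Crebbp hairpins already known. Values of the members in that comparison are therefore given as a description, with no p-value, and the number of them past the threshold is printed only beside that over all genes.

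The preSC line is a mouse line that the labels describe as a precursor of small cell lung cancer (SCLC), and poly(A)-selected RNA was sequenced from 6 libraries of it. In each, the cells carried a lentiviral pLKO.1 vector. The 3 shCrebbp libraries held the vectors pLKO.1-TRC-Crebbp-1, pLKO.1-TRC-Crebbp-2 and pLKO.1-TRC-Crebbp-5, each encoding a different short hairpin RNA against Crebbp (hairpins 1, 2 and 5, with 1 library each). Crebbp encodes the histone acetyltransferase CREB-binding protein. The 3 control libraries held the empty vector (pLKO.1-TRC-empty vector, shEmpty replicates 1 and 2) or a non-silencing hairpin (pLKO.1-TRC-non-silencing, shNS). All libraries came from a single cell line, and no separate cultures are named. Any p-value below therefore reflects library-to-library spread, which may be technical, and among hairpins it also holds differences between the hairpins.

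Annexins are proteins that bind phospholipid membranes when calcium rises, through a conserved core of repeats, and that differ in their N-terminal tails. Annexin A2 joins with a dimer of S100A10 to form a complex at the inner face of the plasma membrane, and AHNAK, a very large scaffold protein, docks onto that complex. The proteins are known for work in membrane repair, vesicle traffic, the linking of membrane to cortical actin and, at the cell surface, plasminogen activation.

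Values are given as TMM-scaled counts per 1000000 reads (CPM), and the depth of the libraries, 13622020 to 19804949 reads counted in genes, makes 1 CPM equal to 13.6 to 19.8 reads. Crebbp, the targeted gene, was at 46.2, 58.3 and 48.9 CPM with hairpins 1, 2 and 5, against 66.2 and 69.6 CPM in the shEmpty libraries and 69.4 CPM in shNS. Crebbp was thus lower with each hairpin than in any control, but the difference did not pass an adjusted p of 0.05 over all genes (log2 fold change -0.42 ± 0.10 (SE), edgeR adjusted p = 0.0999). Its paralogue Ep300 averaged 117 ± 11.1 CPM with the hairpins and 115 ± 5.24 CPM in controls (SD, n = 3 each). Of the neuroendocrine markers checked, Calca, the calcitonin and CGRP gene, was at 632 to 1161 CPM with the hairpins and 1592 to 2010 CPM in controls. In this bulk RNA, fewer cells of a kind and less RNA per cell cannot be told apart. The 5 epithelial markers summed to 1062 to 1520 CPM with the hairpins, against 2236 to 2804 CPM in controls. Leukocyte markers summed to at most 5.44 CPM with the hairpins and 5.47 CPM in controls, with Emr1 at 0 reads. Fibroblast markers, mostly Dcn and with Col3a1 at 0 reads, summed to 14.8 to 64.2 CPM with the hairpins and 38.0 to 45.8 CPM in controls. The airway and alveolar list, with Trp63 at 0 reads, summed to 4.56 to 9.12 CPM with the hairpins and 8.90 to 9.75 CPM in controls. The endothelial list, in which Vwf alone gave nearly all reads and Emcn none, summed to 164 to 412 CPM with the hairpins and 407 to 439 CPM in controls. The part of these marker shifts in the values below was not tested.

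Ahnak and Anxa1 were the members with the lowest levels in hairpin cells relative to controls, and Anxa4 and Anxa11 followed with smaller differences. Ahnak had 40, 45 and 38 reads with hairpins 1, 2 and 5, against 162 and 155 reads in the shEmpty libraries and 223 reads in shNS. On the CPM scale Ahnak stood at 2.94, 3.21 and 2.59 with hairpins 1, 2 and 5, and at 8.28 and 9.45 in shEmpty and 16.3 in shNS. Each hairpin library was below each control, and the hairpin libraries lay close together while shNS was well above both shEmpty libraries. Ahnak averaged 2.91 ± 0.311 CPM with the hairpins and 11.3 ± 4.32 CPM in controls (SD, n = 3 each), a log2 fold change of -1.95 ± 0.29 (SE), or 3.87-fold lower. Set against the mean of the shEmpty libraries alone the difference in log2 CPM was -1.57, and against shNS alone it was -2.44. Ahnak has a transcript of 18100 bases in the annotation used, so a read count this low means a thin coverage. The 326 tested genes whose longest transcript has at least 10000 bases had a median log2 fold change of -0.01, beside 0.01 over all 13390 tested genes.

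Anxa1 encodes annexin A1, a glucocorticoid-induced protein with anti-inflammatory actions. It stood at 20.9, 14.03 and 13.2 CPM with hairpins 1, 2 and 5, against 58.3 and 50.8 CPM in the shEmpty libraries and 46.8 CPM in shNS. The groups were well apart, and hairpin 1 kept the highest Anxa1 level of the hairpin libraries. The group means were 16.1 ± 4.25 CPM with the hairpins and 52.0 ± 5.84 CPM in controls (SD, n = 3 each), with a log2 fold change of -1.70 ± 0.18 (SE). In contrast to Ahnak, Anxa1 was nearly as far below shNS (log2 difference -1.57) as below shEmpty (-1.78).

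Anxa4, whose product is found mainly in epithelial cells, differed by less but with little spread. It was at 47.4, 49.5 and 48.7 CPM with hairpins 1, 2 and 5, against 82.7 and 84.0 CPM in shEmpty and 81.6 CPM in shNS. Neither group varied by more than a few percent within itself. The log2 fold change was -0.77 ± 0.08 (SE), from means of 48.5 ± 1.07 CPM with the hairpins and 82.8 ± 1.21 CPM in controls (SD, n = 3 each).

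Anxa11 encodes an annexin with a long disordered tail that binds the calcium sensor ALG-2. It stood at 133, 105 and 133 CPM with hairpins 1, 2 and 5, against 190 and 183 CPM in shEmpty and 168 CPM in shNS. Hairpin 2 was the lowest, and the groups did not overlap. The log2 fold change was -0.55 ± 0.11 (SE).

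**Figure D1:**
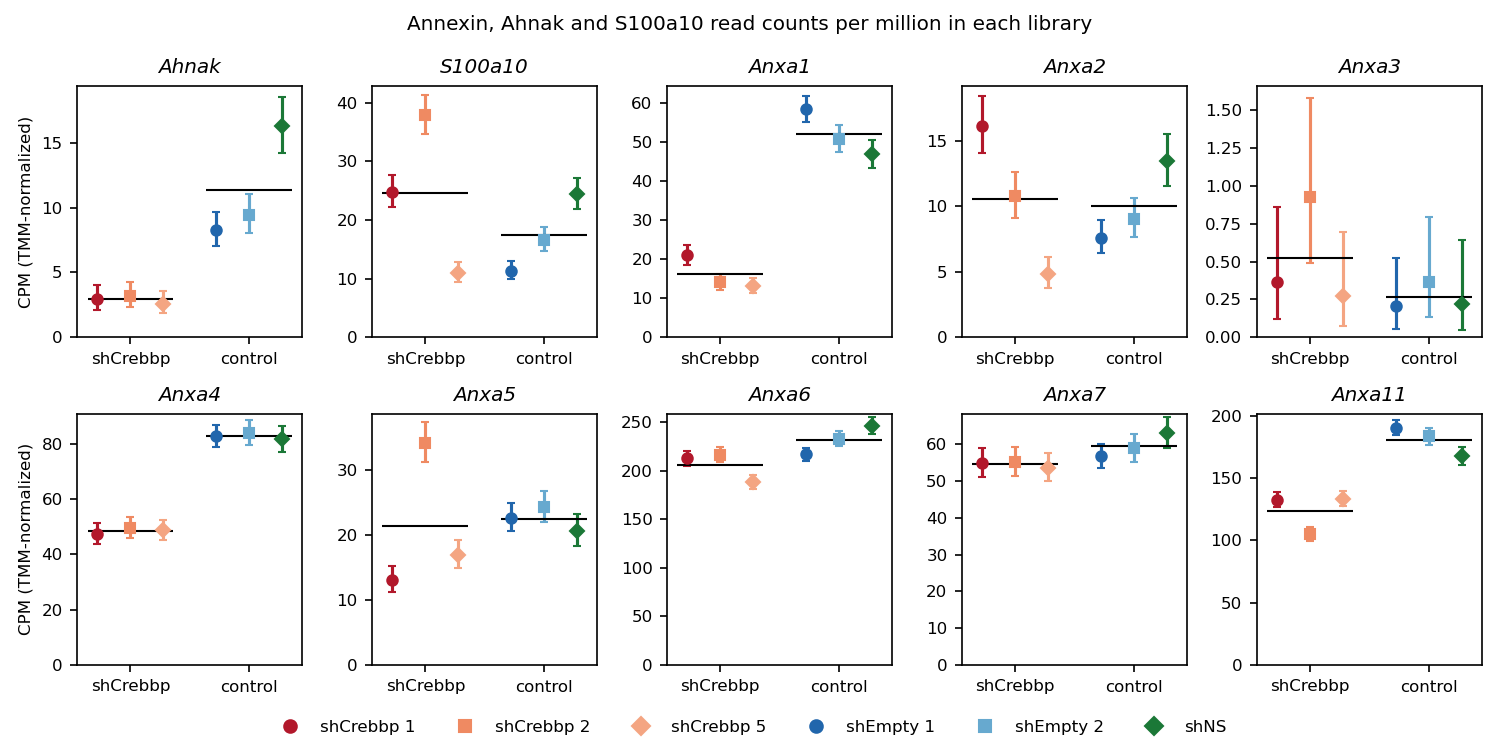
TMM-normalized CPM (linear axes from 0) for each member, with the 3 hairpin libraries left and the 3 controls right in each panel. Points are single libraries with exact 95% Poisson intervals of the count, which cover counting error only, and black lines are group means; Ahnak, Anxa1, Anxa4 and Anxa11 have hairpin points below all controls, while S100a10, Anxa2 and Anxa5 are spread widely among the hairpins.

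The partners of AHNAK did not share its pattern. S100a10 stood at 24.8, 37.9 and 11.02 CPM with hairpins 1, 2 and 5, against 11.3 and 16.6 CPM in shEmpty and 24.4 CPM in shNS. Hairpins 1 and 2 were above every control and hairpin 5 was below every control, with hairpin 1 within counting error of shNS and hairpin 5 within that of shEmpty replicate 1. The log2 fold change of 0.50 ± 0.42 (SE) was thus an average over unlike libraries, and it was 0.04 without hairpin 2 and 0.85 without hairpin 5. In log2 CPM the hairpins were 0.66 above the shEmpty libraries but at -0.16 relative to shNS. Anxa2 stood at 16.2, 10.8 and 4.83 CPM with hairpins 1, 2 and 5, against 7.61 and 9.02 CPM in shEmpty and 13.4 CPM in shNS. Here hairpin 1 was above all controls and hairpin 5 below them all. The log2 fold change of Anxa2 was 0.08 ± 0.40 (SE), and it turned to -0.36 without hairpin 1 and was 0.42 without hairpin 5. The difference in log2 CPM of Anxa2 was 0.19 against shEmpty and -0.50 against shNS, so that for both genes the sign depended on the control vector.

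Both genes of the annexin A2 and S100A10 complex were lowest, among the hairpin libraries, in hairpin 5, and highest, among the controls, in shNS. Per kilobase of transcript, S100a10 exceeded Anxa2 in every library, with an RPKM ratio of 3.25, 7.44 and 4.82 with hairpins 1, 2 and 5, against 3.15 and 3.90 in shEmpty and 3.83 in shNS. The ratio in hairpin 2 was the highest of the 6 libraries, and that in hairpin 1 was within the range of the controls.

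Anxa5 encodes the annexin used in the laboratory to stain exposed phosphatidylserine. It stood at 13.1, 34.1 and 16.9 CPM with hairpins 1, 2 and 5, against 22.6 and 24.3 CPM in shEmpty and 20.6 CPM in shNS. Hairpin 2 was above all controls and hairpins 1 and 5 below them all, whereas the controls were close to each other. The log2 fold change of -0.07 ± 0.31 (SE) became -0.59 without hairpin 2 and 0.18 without hairpin 1.

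Anxa6 and Anxa7 differed little. Anxa6, which encodes the annexin with a doubled core, was at 213, 217 and 189 CPM with hairpins 1, 2 and 5, against 217 and 233 CPM in shEmpty and 247 CPM in shNS (log2 fold change -0.17 ± 0.09 (SE)). The values of hairpin 2 and of shEmpty replicate 1 were within counting error of each other. Anxa7 was at 55.0, 55.2 and 53.7 CPM with hairpins 1, 2 and 5, against 56.8 and 59.0 CPM in shEmpty and 63.1 CPM in shNS (log2 fold change -0.13 ± 0.08 (SE)). The hairpin libraries of both genes were below the controls by small margins. For Anxa7 all hairpin libraries were within counting error of shEmpty replicate 1.

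Anxa3 was near the detection limit. It had 5, 13 and 4 reads with hairpins 1, 2 and 5, against 4 and 6 reads in shEmpty and 3 reads in shNS. The exact 95% Poisson interval of the hairpin 2 count ran from 6.92 to 22.2 reads and that of shNS from 0.62 to 8.77, so that these overlapped. Anxa3 did not pass the filter on low counts and has no fitted fold change.

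**Figure D2:**
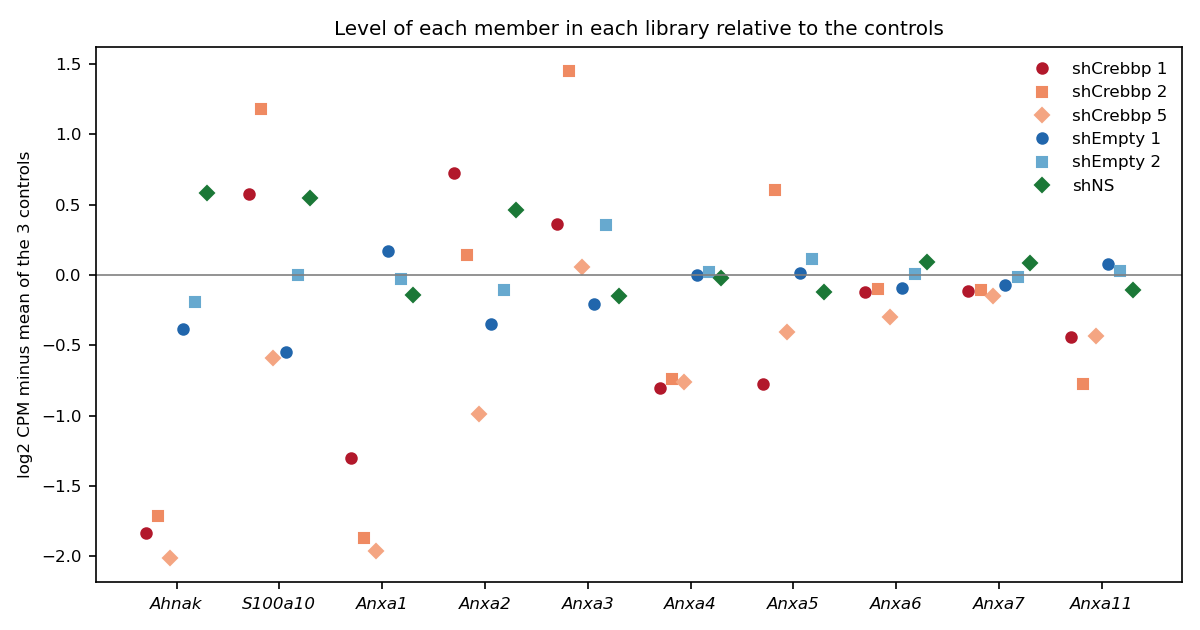
Log2 CPM (prior count 2) of each member in each library minus the mean of the 3 controls, with hairpin libraries left of controls within each gene. Ahnak (-1.84, -1.72 and -2.01 with hairpins 1, 2 and 5), Anxa1 and Anxa4 are below 0 in all hairpin libraries, while S100a10, Anxa2 and Anxa5 have hairpin libraries on both sides of 0.

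Counted over the set, 9 of the 10 members passed the filter, 7 with a negative and 2 with a positive log2 fold change, and their median was -0.17, beside 0.01 over all tested genes. The edgeR fit called 3 members lower (Ahnak, Anxa1 and Anxa4) and none higher at an adjusted p of 0.05, where it called 0.978% of all tested genes lower and 0.276% higher. Since this contrast was used to choose members, nothing is read from that count. It was 0 without either shEmpty library, when edgeR called 0 genes in all (1332 without replicate 1 and 1238 without replicate 2 at an unadjusted p under 0.05). It was 2 without shNS or without hairpin 2, both times without Ahnak. It was 4 without hairpin 1, with DESeq2 or with no filter, when Anxa11 was added. Over all genes, 48 were called without shNS and 101 without hairpin 2. The numbers over all genes were 368 without hairpin 1, 730 with DESeq2 and 235 with no filter, beside 168 in the main fit. In 6 of the 10 members all hairpin libraries lay below all controls, and in none above, where 11% of all tested genes (1473 of 13390) lay below and 11.4% above. In the other 4, namely S100a10, Anxa2, Anxa3 and Anxa5, the groups overlapped. These counts come from the same contrast, so nothing is read from them either. In Anxa6 and in Anxa7 the values of hairpin 2 and of shEmpty replicate 1 were within counting error of each other.

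Promoter sequences are shown for Ahnak and Anxa1, which were lowest relative to controls, for Anxa4, which was evenly lower, and for Anxa2, which varied between hairpins. RefSeq (GRCm38.p6) promoters were at hand for 7 members, with 9 starts in all. Each is the 250 bases before the start, 5′ to 3′ on the strand of the gene. They lie at chr19:8989034-8989283 (plus strand), chr19:20390672-20390921 (minus strand), chr9:69453433-69453682 (plus strand) and, for the first of 2 Anxa4 starts, chr6:86793585-86793834 (minus strand), in GRCm38.p6, which is not the build of the counts. Capitals mark, on either strand, the TATA box (letters TATAAA), the GC box (letters GGGCGG), the short form of the cAMP response element (letters TGACG) and the AP-1 site (letters TGANTCA).
Ahnak: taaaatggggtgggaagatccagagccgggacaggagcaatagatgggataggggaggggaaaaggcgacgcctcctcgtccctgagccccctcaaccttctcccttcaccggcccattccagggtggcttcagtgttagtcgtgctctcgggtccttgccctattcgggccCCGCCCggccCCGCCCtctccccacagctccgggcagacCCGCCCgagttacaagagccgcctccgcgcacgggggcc
Anxa1: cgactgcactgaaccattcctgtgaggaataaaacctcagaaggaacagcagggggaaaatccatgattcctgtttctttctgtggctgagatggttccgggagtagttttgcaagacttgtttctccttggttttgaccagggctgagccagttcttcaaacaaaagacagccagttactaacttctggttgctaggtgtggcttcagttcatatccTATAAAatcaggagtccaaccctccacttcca
Anxa2: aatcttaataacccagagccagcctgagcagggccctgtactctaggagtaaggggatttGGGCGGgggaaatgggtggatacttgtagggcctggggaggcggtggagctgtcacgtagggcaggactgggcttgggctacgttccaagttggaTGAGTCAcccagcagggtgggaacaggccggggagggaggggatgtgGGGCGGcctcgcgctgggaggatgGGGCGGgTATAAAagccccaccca
Anxa4: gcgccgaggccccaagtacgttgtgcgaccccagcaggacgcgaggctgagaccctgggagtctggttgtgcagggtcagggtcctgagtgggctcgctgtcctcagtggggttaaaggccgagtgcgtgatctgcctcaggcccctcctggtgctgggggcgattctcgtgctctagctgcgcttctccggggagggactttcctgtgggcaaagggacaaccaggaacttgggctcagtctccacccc
The Ahnak promoter held 66.4% G and C with 3 GC boxes and no TATA box, and that of Anxa1 held 46.0% G and C with no GC box and a TATA box that begins at position -32 from the start. The Anxa2 promoter had both kinds of element, with 3 GC boxes, a TATA box at position -17 and an AP-1 match. The first Anxa4 promoter held none of the marked motifs. Over the 9 member promoters the full cAMP response element (letters TGACGTCA, which contain the short form) occurred in 0, the TATA box in 2 and the GC box in 5. The short form, the AP-1 site and a short glucocorticoid element (letters AGAACA, not capitalised above) occurred in 1 each. Both the short form and the glucocorticoid element were in the second Anxa4 promoter, which is not shown. Over all 32851 promoters of that length, counting both strands, the full cAMP response element occurred in 1.55%, its short form in 17.8%, the TATA box in 12.4%, the GC box in 32.7%, the AP-1 site in 6.75% and the glucocorticoid element in 16.1%. The promoters of Ahnak and Anxa1 and the first of Anxa4 thus shared no marked motif. A GC box was held by Ahnak, Anxa2, Anxa7 and Anxa11. A match is a description of letters only.

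Levels between genes were compared per kilobase of the longest annotated transcript (RPKM). In controls Anxa6 (93.4 ± 5.98 RPKM) and Anxa11 (75.4 ± 4.89 RPKM) were the highest members, followed by Anxa4 (40.8 ± 0.595 RPKM), Anxa1 (31.0 ± 3.49 RPKM), S100a10 (25.5 ± 9.57 RPKM), Anxa7 (20.5 ± 1.11 RPKM), Anxa5 (12.99 ± 1.07 RPKM) and Anxa2 (6.93 ± 2.10 RPKM), all SD with n = 3. Ahnak (0.626 ± 0.239 RPKM) and Anxa3 (0.165 ± 0.0560 RPKM) were far below. Among neighbours in that order, the library ranges of Anxa1 and S100a10 overlapped, as did those of S100a10 and Anxa7, and the others were separate. With the hairpins the order was Anxa6 (82.9 ± 6.19 RPKM), Anxa11 (51.7 ± 6.77), S100a10 (35.9 ± 19.6), Anxa4 (23.9 ± 0.525), Anxa7 (18.8 ± 0.286), Anxa5 (12.4 ± 6.47), Anxa1 (9.59 ± 2.54), Anxa2 (7.32 ± 3.92), Anxa3 (0.327 ± 0.221) and Ahnak (0.161 ± 0.0172). Anxa1 thus stood at rank 7 with the hairpins and at rank 4 in controls. In hairpin cells only Anxa6 and Anxa11, Anxa4 and Anxa7, and Anxa2 and Anxa3 were neighbours with separate ranges. With the merged length of all exons in place of the longest transcript, 6 of the 10 members kept their rank in controls. Several levels were then lower by more than 1.5-fold, and in controls Anxa4 was at 17.8 RPKM, Anxa1 at 17.9 RPKM (rank 3), S100a10 at 14.4 RPKM, Anxa7 at 9.95 RPKM, Anxa11 at 43.6 RPKM and Anxa2 at 2.69 RPKM. Anxa1 remained at rank 7 with the hairpins, at 5.52 RPKM.

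**Figure D3:**
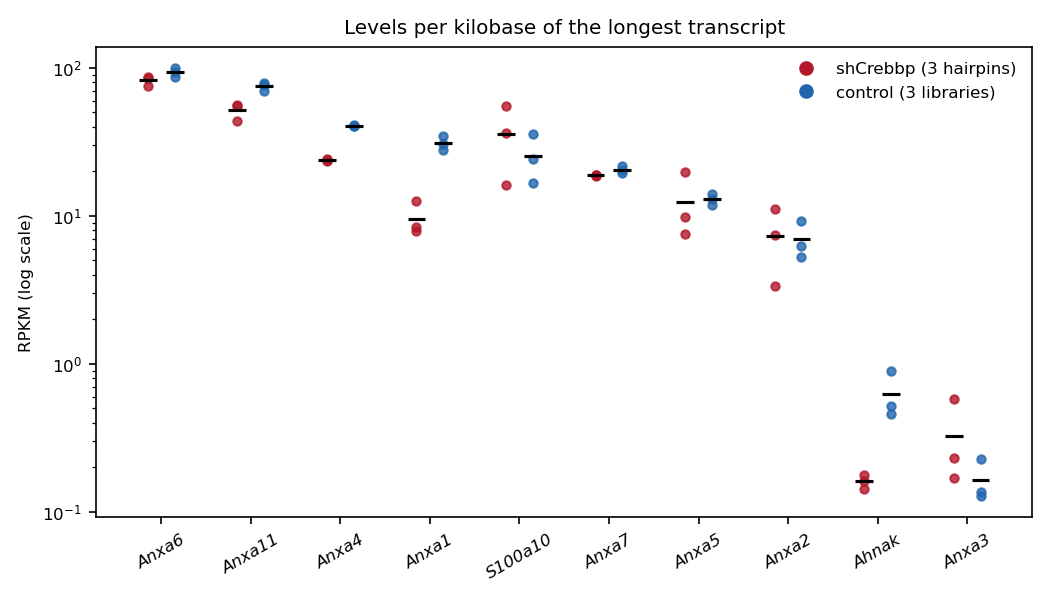
Levels per kilobase of the longest transcript (RPKM, log scale) of the 10 members, ordered by the control mean, with hairpin libraries left and controls right for each gene. Points are single libraries and black lines are group means; Anxa6 is highest in both groups (82.9 RPKM with hairpins and 93.4 RPKM in controls) and Ahnak and Anxa3 are lowest.

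Summed over the 8 annexins, transcript levels were 215, 211 and 195 RPKM with hairpins 1, 2 and 5, against 280 and 283 RPKM in shEmpty and 280 RPKM in shNS. The mean was 207 ± 10.4 RPKM with the hairpins and 281 ± 1.44 RPKM in controls (SD, n = 3 each). Anxa6 and Anxa11 together made up 62.2% to 67.4% of the sum with the hairpins and 59.5% to 60.3% in controls. The share of Anxa1 was 3.98% to 5.82% with the hairpins and 9.97% to 12.4% in controls.

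**Figure D4:**
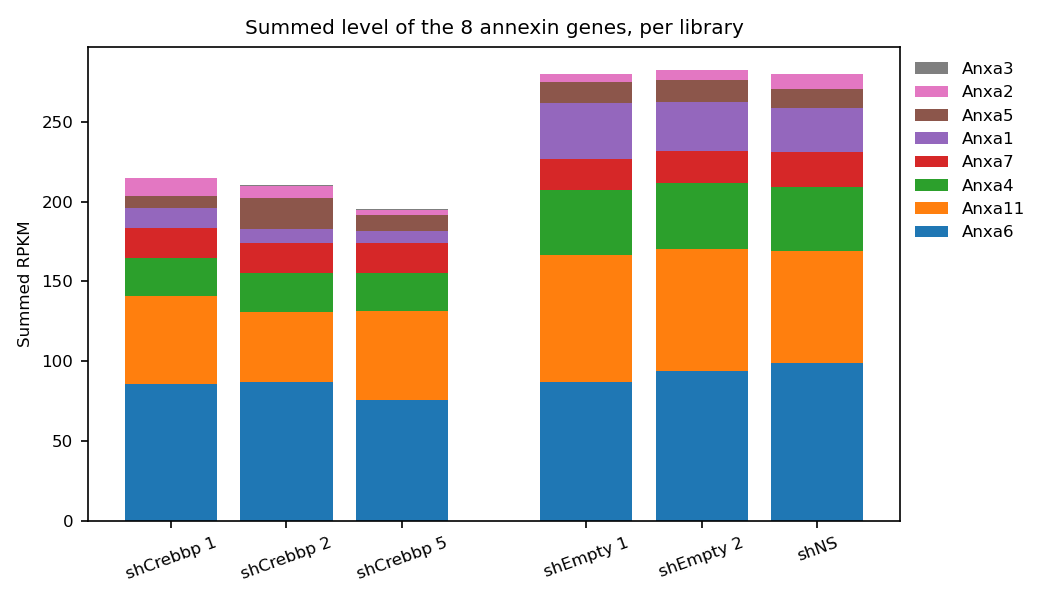
Summed RPKM of the 8 annexin genes in each library (linear axis from 0), split by gene, with hairpin libraries left and controls right. The hairpin bars reach 195 to 215 RPKM and the control bars 280 to 283 RPKM, and the Anxa1, Anxa4 and Anxa11 segments are shorter with the hairpins.

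The controls gave a comparison that the choice of members did not use. The single shNS library was set against the 2 shEmpty libraries in an edgeR fit of 3 groups, with shNS assumed to vary like the others. The third group was the 3 hairpin libraries. The spread thus came from the shEmpty and the hairpin libraries, and it also holds differences between the hairpins. Few calls in this fit therefore do not show that the controls were alike. Ahnak was 1.84-fold higher in shNS (log2 difference 0.88 ± 0.27 (SE)), and S100a10 (0.80 ± 0.60) and Anxa2 (0.69 ± 0.58) were higher by similar amounts. None passed over all genes (edgeR adjusted p = 0.9996 for each, unadjusted p = 0.0137, 0.221 and 0.268). Ahnak, S100a10 and Anxa2 were the members with the largest of these differences, and the other 6 tested members differed by -0.22 (Anxa1) to 0.13 (Anxa6 and Anxa7) on the log2 scale. edgeR called 0.0% of all genes in this comparison, with 100 at an unadjusted p under 0.05, and DESeq2 also called 0.

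Differences between hairpins were tested in the same way for 3 pairs, in an edgeR fit with each hairpin as a group of its own. The spread in that fit comes from the 3 controls alone, on the assumption that hairpin libraries vary like them, and p-values were adjusted over all 13390 genes within each pair. Anxa5 was lower with hairpin 1 than with hairpin 2 (log2 difference -1.38 ± 0.18 (SE), edgeR adjusted p = 0.00394), and higher with hairpin 2 than with hairpin 5 (1.01 ± 0.17, edgeR adjusted p = 0.0276). Anxa2 was higher with hairpin 1 than with hairpin 5 (1.74 ± 0.38, edgeR adjusted p = 0.0373). Over all genes, 14.6% were called between hairpins 1 and 2 (7.53% lower and 7.03% higher in hairpin 1). Between hairpins 1 and 5, 6.5% were called (3.06% lower and 3.44% higher in hairpin 1). Between hairpins 2 and 5, 2.98% were called (1.43% lower and 1.55% higher in hairpin 2). S100a10 had the largest difference of hairpins 2 and 5 among members (1.78 ± 0.50) and did not pass (edgeR adjusted p = 0.128).

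Ahnak and Anxa4 did not differ between hairpins beyond their errors. The Ahnak differences were -0.12 ± 0.63, 0.18 ± 0.65 and 0.31 ± 0.63 for hairpins 1 against 2, 1 against 5 and 2 against 5 (log2, SE; edgeR adjusted p = 0.913, 0.897 and 0.810). Those of Anxa4 were -0.06 ± 0.11, -0.04 ± 0.11 and 0.02 ± 0.11 (edgeR adjusted p = 0.735, 0.867 and 0.924). Errors as wide as those of Ahnak do not show that the hairpins acted alike. Anxa1 was higher with hairpin 1 than with hairpins 2 and 5 by 0.58 ± 0.20 and 0.67 ± 0.20, without passing (edgeR adjusted p = 0.0816 for both).

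**Figure D5:**
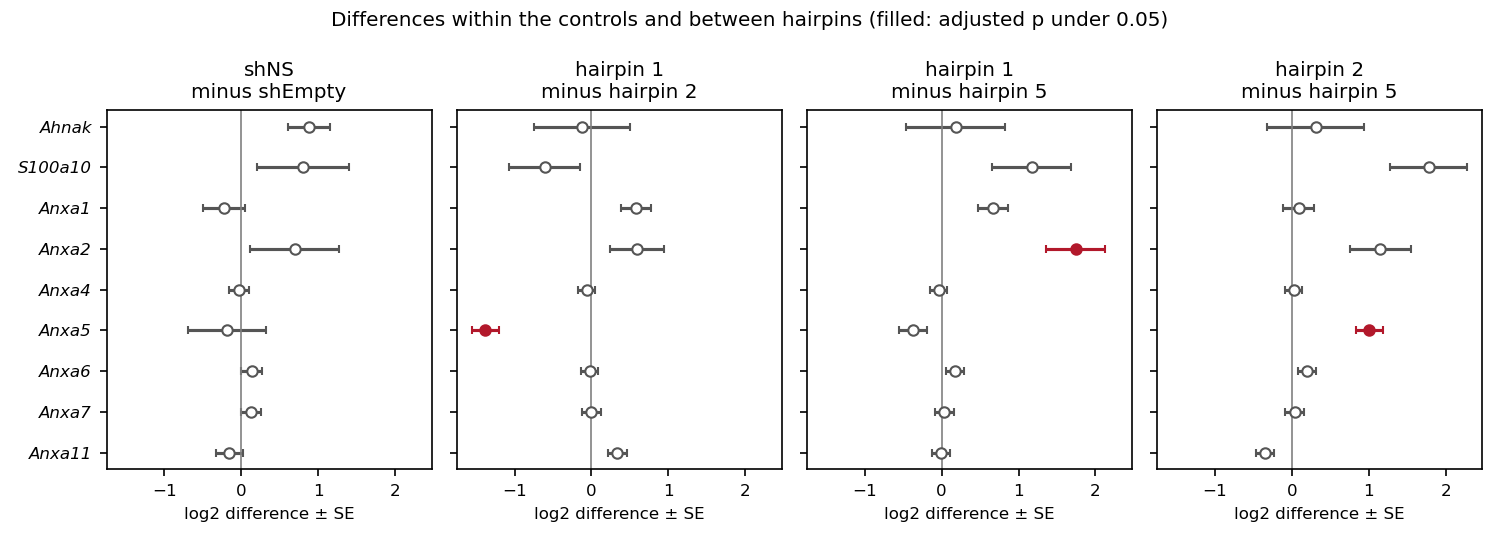
Log2 differences with SE for the 9 tested members between shNS and shEmpty and between each pair of hairpins, first-named group minus second. Filled points passed an edgeR adjusted p of 0.05: Anxa5 in the pairs with hairpin 2 (-1.38 and 1.01) and Anxa2 between hairpins 1 and 5 (1.74).

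Genes whose levels followed a member most closely over the 6 libraries were found by the root mean square difference of centred log2 CPM, among 10599 genes (average log2 CPM 2 or more). Nearest to Ahnak were Clca1 (0.28), Tmprss4 (0.29) and Ccdc64b (0.29), where the median gene was at 0.99. A gene that did not vary at all would be at 0.98, the root mean square of the centred Ahnak profile itself. The median thus mostly reflects how much the member varies, and the nearest genes are the smallest of 10599 values. Clca1 stood at 7.86, 7.19 and 7.42 CPM with hairpins 1, 2 and 5, against 22.0 and 23.9 CPM in shEmpty and 25.3 CPM in shNS. Nearest to Anxa1 were Epha2 (0.17), Cldn7 (0.20) and Gprc5c (0.23), with a median gene at 0.90 and an unvarying gene at 0.89. Cldn7, a tight junction claudin, was at 66.9, 43.0 and 47.6 CPM with hairpins 1, 2 and 5, against 138 and 133 CPM in shEmpty and 122 CPM in shNS.

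Nearest to S100a10 were Gjd2 (0.17), Magi1 (0.18) and Cd82 (0.23), with a median gene at 0.66 and an unvarying gene at 0.64. Nearest to Anxa2 were Slc7a11 (0.17), Epha8 (0.21) and Slc9a9 (0.22), with a median gene at 0.58 and an unvarying gene at 0.56. The genes nearest to Ahnak, Anxa1, S100a10 and Anxa2 were 12 different genes. Among the 36 pairs of tested members themselves, Anxa6 and Anxa7 were closest (0.06), followed by Anxa4 and Anxa11 (0.17). This measure is small for any pair of genes that vary little, as Anxa6 and Anxa7 did.

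The remaining genes of these pathways did not pass in the same edgeR fit. Over 10 lists with 129 genes, 83 were tested, 0 were called in either direction (11 at an unadjusted p under 0.05), and the median log2 fold change was 0.00, where edgeR called 1.25% of all tested genes. DESeq2 called 4 of them lower, namely Per1, Actn1, Myh9 and Slc9a3r1. edgeR without hairpin 1 called 4 lower as well, with Eno1 in place of Actn1. Over all genes DESeq2 called 730 and edgeR without hairpin 1 called 368, where the main edgeR fit called 168. Nothing is read from the 4 calls about the lists.

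Of the 4 other annexins, 1 was tested. Anxa9 averaged 1.34 ± 0.305 CPM with the hairpins and 1.09 ± 0.204 CPM in controls (SD, n = 3 each; edgeR adjusted p = 0.728). Anxa8 and Anxa10 had 0 reads in every library, which allows up to 3 reads, or 0.153 to 0.220 CPM, in each, and Anxa13 had 4 reads in all. Of the 15 other S100 genes, 4 were tested. S100a13 was at 16.6 ± 4.68 CPM with the hairpins and 13.9 ± 2.12 CPM in controls (edgeR adjusted p = 0.625). S100g, a calcium buffer gene, was at 1.35 ± 0.180 CPM with the hairpins and 0.691 ± 0.118 CPM in controls (edgeR adjusted p = 0.190). S100a11, which encodes the S100 partner of annexin A1, was at 3.12 ± 1.09 CPM with the hairpins and 3.07 ± 0.0894 CPM in controls (edgeR adjusted p = 0.983). The AHNAK-related gene Prx was at 5.91 ± 1.26 CPM with the hairpins and 5.75 ± 0.352 CPM in controls (edgeR adjusted p = 0.958).

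Levels of the genes linked to annexin A1 differed widely. The formyl peptide receptor genes Fpr1 and Fpr3 had 0 reads and Fpr2 had 1 read in all libraries together. Of the 15 genes in the annexin A1 and eicosanoid list 5 were tested, of which Lta4h, the leukotriene A4 hydrolase gene, was at 111 ± 2.62 CPM with the hairpins and 124 ± 2.64 CPM in controls (log2 fold change -0.16, edgeR adjusted p = 0.327). Ptges3, a prostaglandin E synthase and co-chaperone gene, was at 340 ± 6.97 CPM with the hairpins and 315 ± 18.0 CPM in controls (edgeR adjusted p = 0.532). All 12 genes of the glucocorticoid receptor list were tested, 4 with a positive and 8 with a negative log2 fold change. Per1, a clock gene induced by glucocorticoids and by cAMP, was at 29.5 ± 5.04 CPM with the hairpins and 46.0 ± 1.78 CPM in controls (log2 fold change -0.64 ± 0.13, edgeR adjusted p = 0.0591). Zfp36, an mRNA decay factor gene, was at 7.05 ± 1.64 CPM with the hairpins and 10.1 ± 0.566 CPM in controls (edgeR adjusted p = 0.242).

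In plasminogen activation, 7 of 13 genes were tested. Plat, the tissue plasminogen activator gene, was at 3.0 ± 1.0 CPM with the hairpins and 2.03 ± 0.577 CPM in controls (edgeR adjusted p = 0.478). The plasminogen receptor gene Plgrkt, listed as 5033414D02Rik, was at 32.7 ± 1.90 CPM with the hairpins and 29.0 ± 1.12 CPM in controls (edgeR adjusted p = 0.421). Among cortical actin genes 18 of 19 were tested, 6 with a positive and 12 with a negative log2 fold change. Actn1, an actin cross-linker gene, was at 159 ± 23.9 CPM with the hairpins and 241 ± 41.5 CPM in controls (log2 fold change -0.60 ± 0.15, edgeR adjusted p = 0.09995). Slc9a3r1, the gene of a scaffold that binds ezrin, was at 39.98 ± 4.2 CPM with the hairpins and 52.9 ± 2.38 CPM in controls (edgeR adjusted p = 0.09995).

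In the membrane repair list 17 of 24 genes were tested, 12 with a positive and 5 with a negative log2 fold change. The ferlin gene Dysf had 0 reads. Trim72, a membrane repair gene, was at 1.02 ± 0.0882 CPM with the hairpins and 0.524 ± 0.0851 CPM in controls (edgeR adjusted p = 0.207), and Ptrf, a caveolar coat gene, at 5.95 ± 2.61 CPM with the hairpins and 3.69 ± 0.678 CPM in controls (edgeR adjusted p = 0.375). Of 14 channels and channel subunits tied to S100A10 or AHNAK 8 were tested. The calcium channel subunit genes Cacnb1 (15.5 ± 1.22 CPM with the hairpins and 12.6 ± 0.747 CPM in controls) and Cacnb2 (9.40 ± 3.01 CPM with the hairpins and 11.5 ± 1.66 CPM in controls) had edgeR adjusted p of 0.287 and 0.624. Among 11 scramblase and flippase genes 10 were tested. Xkr8 was at 11.2 ± 0.855 CPM with the hairpins and 8.98 ± 0.382 CPM in controls (edgeR adjusted p = 0.305), and Atp8a1 at 195 ± 7.57 CPM with the hairpins and 226 ± 28.4 CPM in controls (edgeR adjusted p = 0.347).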

How the data were processed

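RNA was measured in 6 libraries of preSC cells. Per the labels' protocols, 500 ng of RNA per library entered poly(A) selection on oligo(dT) beads. bcl2fastq 1.8.2, TopHat2 2.0.12, HTSeq 0.6.1 and build mm9 appear in the submitters' processing notes; annotation and strand setting were not given in the sources used here. Each deposited file holds 1 library's raw counts by gene symbol, not normalized by the authors. The 5 HTSeq summary rows (24.8% to 28.9% of counts) were left out.

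Tests used edgeR 4.0.16 (R 4.3.3; TMM, filterByExpr, robust quasi-likelihood, threshold 0.05 after Benjamini-Hochberg adjustment), and 13390 genes passed the filter. DESeq2 1.42.0, limma-voom (limma 3.58.1), RLE scaling, other filters and omission of single libraries were alternatives. The fits were tested on simulated data. SDs are over 3 libraries, and each SE is the log2 fold change divided by the root of F. Log2 CPM has a prior count of 2. Same-group libraries differed beyond counting noise (chi-square divided by its degrees of freedom, 4.08 to 10.9 between controls and 20.4 to 28.4 between hairpins). Transcript lengths came from GENCODE M21 (GRCm38) for 98.1% of symbols. In that annotation an opposite-strand gene overlaps exons of Anxa2, Anxa4 and Anxa11 and a same-strand gene those of Anxa3, so their reads may be mixed.

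The members and gene lists were chosen with earlier results of these data known. Genes named beside the 10 members are Crebbp and Ep300, the 3 genes nearest to each of Ahnak, S100a10, Anxa1 and Anxa2, the most abundant marker genes, and for each list the 2 genes of smallest p, as none was called. S100a11, Fpr1, Fpr2, Fpr3, Dysf, Anxa8, Anxa10, Anxa13, marker genes at 0 reads, the genes called under other settings and those under the other observations were named after their values were seen. Counting intervals and the limit of 3 reads cover counting error only.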

Additional observations from a re-analysis of the deposited data

Results flagged for a closer look

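In 3 cases the departure of a member from the controls differed between hairpins by a test of the difference itself. Anxa5 was lower with hairpin 1 than with hairpin 2 by a log2 difference of -1.38 (edgeR adjusted p = 0.00394, and 0.000214 with DESeq2). Anxa5 was also higher with hairpin 2 than with hairpin 5 by 1.01 (edgeR adjusted p = 0.0276, and 0.0266 with DESeq2). Anxa2 was higher with hairpin 1 than with hairpin 5 by 1.74 (edgeR adjusted p = 0.0373, and 0.00932 with DESeq2). Each passed in all 4 alternatives run. In each of the 3 pairs 1 of the 9 tested members (11.1%) was called, where 14.6% (hairpins 1 and 2), 6.5% (hairpins 1 and 5) and 2.98% (hairpins 2 and 5) of all genes were called. There is 1 library per hairpin, so a difference between hairpins and a difference between single libraries cannot be told apart.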

How the results depend on the processing

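No paired analysis was possible because the labels give the controls no numbers that match the hairpin numbers, except a single shared 2. For shCrebbp against control, 168 genes were called by edgeR, 730 by DESeq2 and between 0 and 389 with 1 library left out. Of the pathway list genes 0 were called, 1 without a filter (Per1), 4 with DESeq2 and between 0 and 4 with 1 library left out. Between 0 and 4 members were called with 1 library left out, against 3 with all. Between hairpins 1 and 2 edgeR called 1949 genes and DESeq2 1009. Between hairpins 1 and 5 edgeR called 871, with 1344 without a filter and 516 with DESeq2. Between hairpins 2 and 5 edgeR called 399, and 995 without a filter. The causes were not tested. With merged exon lengths 6 of the 10 members kept their rank in controls. The signs of the fold changes of Ahnak (-2.14 to -1.61), Anxa1 (-1.94 to -1.58), Anxa4 (-0.79 to -0.75) and Anxa11 (-0.61 to -0.44) held under all 11 alternatives; where 1 library is left out, groups that do not overlap fix that sign. Depth limits Ahnak (at most 45 reads per hairpin library) and Anxa3 most.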

Other observations

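Of the 83 tested genes of the annexin-related lists, 13 (15.7%) were called between hairpins 1 and 2, 7 (8.43%) between hairpins 1 and 5 and 1 (1.20%) between hairpins 2 and 5. Over all genes the shares were 14.6%, 6.5% and 2.98%, so that nothing is read from these counts about the lists. Eno1, the enolase and plasminogen receptor gene, had the smallest adjusted p of them. It stood at 28.95, 9.05 and 10.6 CPM with hairpins 1, 2 and 5, against 14.9 and 15.9 CPM in shEmpty and 16.6 CPM in shNS, and was higher with hairpin 1 than with hairpin 2 (log2 difference 1.68, edgeR adjusted p = 0.00223) and than with hairpin 5 (1.45, edgeR adjusted p = 0.00559). Its reads are uncertain, since near-identical copies of Eno1 exist.

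Nr3c1, the glucocorticoid receptor gene, stood at 163, 106 and 168 CPM with hairpins 1, 2 and 5, against 177 and 150 CPM in shEmpty and 150 CPM in shNS. Hairpin 2 was below every other library, and Nr3c1 was higher with hairpin 1 than with hairpin 2 (log2 difference 0.61, edgeR adjusted p = 0.0256) and lower with hairpin 2 than with hairpin 5 (-0.66, edgeR adjusted p = 0.0462, not called with RLE scaling). Of the other genes in the glucocorticoid list, Dusp1 (0.52, edgeR adjusted p = 0.0258) and Errfi1 (0.89, edgeR adjusted p = 0.0235) were also higher with hairpin 1 than with hairpin 2. Dusp1 (0.50, edgeR adjusted p = 0.0432) and Ddit4 (0.97, edgeR adjusted p = 0.0239) were higher with hairpin 1 than with hairpin 5, and Nr3c1 was not called in that pair.

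Flna, the filamin A gene, stood at 235, 174 and 141 CPM with hairpins 1, 2 and 5, against 160 and 156 CPM in shEmpty and 144 CPM in shNS. It was higher with hairpin 1 than with hairpin 2 (log2 difference 0.44, edgeR adjusted p = 0.0348) and than with hairpin 5 (0.74, edgeR adjusted p = 0.0101). Cav2, the caveolin 2 gene, was at 4.70, 10.7 and 6.67 CPM with hairpins 1, 2 and 5, against 5.98 and 6.28 CPM in shEmpty and 7.81 CPM in shNS, and was lower with hairpin 1 than with hairpin 2 (-1.18, edgeR adjusted p = 0.0297, not called with DESeq2). The spread in these tests comes from the 3 controls alone. Of the glucocorticoid list genes named above, Errfi1 and, in both of its pairs, Dusp1 were not called with DESeq2.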
